A study of Mus musculus with 12 samples.

Results

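The 10 genes described here encode the proteins of cytotoxic granules and the inhibitors that restrain them: the granzymes Gzma, Gzmb, Gzmc, Gzmk and Gzmm, the pore-forming protein perforin (Prf1), the granule membrane protein Nkg7, and the protease inhibitors Ctla2a, Serpinb9 and Serpinb6b. They were chosen by name, with earlier results of these data known, and all 10 had a row among the 23991 gene names of the series. Of these, 9 were among the 10126 genes that reached at least 1 FPKM (a fragment level scaled for library size and transcript length) in at least 3 libraries and were tested, and Gzmm was not. Male C57BL/6 mice aged 8 to 10 weeks, either wild type (WT) or Adcy10-/-, gave spleens or lymph nodes, from which CD4+ T cells were enriched by magnetic negative selection. The product of Adcy10, soluble adenylyl cyclase, makes cyclic AMP inside cells. Polyadenylated RNA was sequenced after 18 h of culture toward the Th17 lineage on anti-CD3 at 10 µg/mL. The culture description names anti-CD28 at 2 µg/mL, IL-1β at 20 ng/mL, IL-6 at 25 ng/mL, IL-23 at 20 ng/mL, and anti-IFNγ and anti-IL-4 at 1 µg/mL each, without saying which of these the baseline medium held. Each genotype was cultured in baseline medium and in baseline medium with polarizing cytokines, which gave 4 groups of 3 libraries. Since nothing in the labels ties a replicate to its own animal, p-values measure only the spread between these libraries, which may be technical. The labels also do not state that equal replicate numbers mark paired libraries. Comparisons below of libraries with the same number rest on that assumption.

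Cytotoxic lymphocytes store granzymes, which are serine proteases, together with perforin in secretory granules, and release both onto a target cell. Perforin opens the target's membrane, granzymes enter and cleave proteins inside, and the lymphocyte protects itself with serpins that trap granzymes in its own cytosol. The granules are best known from CD8 T cells and natural killer (NK) cells, but activated CD4 T cells can also express some of these genes.

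Absolute read depth is not given by FPKM. The spacing of the low values gave the libraries' relative depth, from 0.713 to 1 of the deepest library. Of 600 low genes, 254 had values that were whole multiples of 1 step in all 12 libraries. That step was read as 1 fragment. The targeted gene, Adcy10, had a value of 0 in each of the 12 libraries, WT included, and the genotype labels could not be checked from it. The 4 libraries with replicate number 1 stood apart from the other 8. Their level of Cd8a, which marks CD8 T cells, lay at 0.0673 to 0.225 FPKM against 0.933 to 2.52 in the others. Cd8b1, the more abundant CD8 T cell marker, did not separate them, at 8.76 to 10.3 against 7.49 to 12.2 FPKM. Blk, a kinase of B cells and some gamma delta T cells, lay at 0.141 to 0.405 against 1.98 to 3.35 FPKM. Tbx21, the transcription factor T-bet, lay at 9.35 to 15.1 against 23.6 to 31.9 FPKM. The results below are therefore also given without these 4 libraries. In bulk RNA of this kind, fewer cells of a type and less RNA per cell cannot be told apart.

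On the FPKM scale, the members spanned a wide range of levels. Gzmb was the highest, at 52.0 to 169 FPKM over the 12 libraries and at the 93rd percentile of mean level among the tested genes. Serpinb6b (17.6 to 35.1), Serpinb9 (13.0 to 26.0) and Nkg7 (13.0 to 21.1) followed, and the ranges of these 3 overlapped. Ctla2a (2.64 to 9.02), Gzma (0.104 to 8.80) and Prf1 (1.68 to 6.11) were lower and also overlapped. Gzmc (0.710 to 2.01), Gzmk (0.447 to 2.72) and Gzmm (0.176 to 0.628) were at the bottom. The 5 granzymes outside the list were lower still: Gzmd and Gzmn were listed at 0 in every library, and no value of Gzme, Gzmf or Gzmg exceeded 0.159 FPKM.

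**Figure D1:**
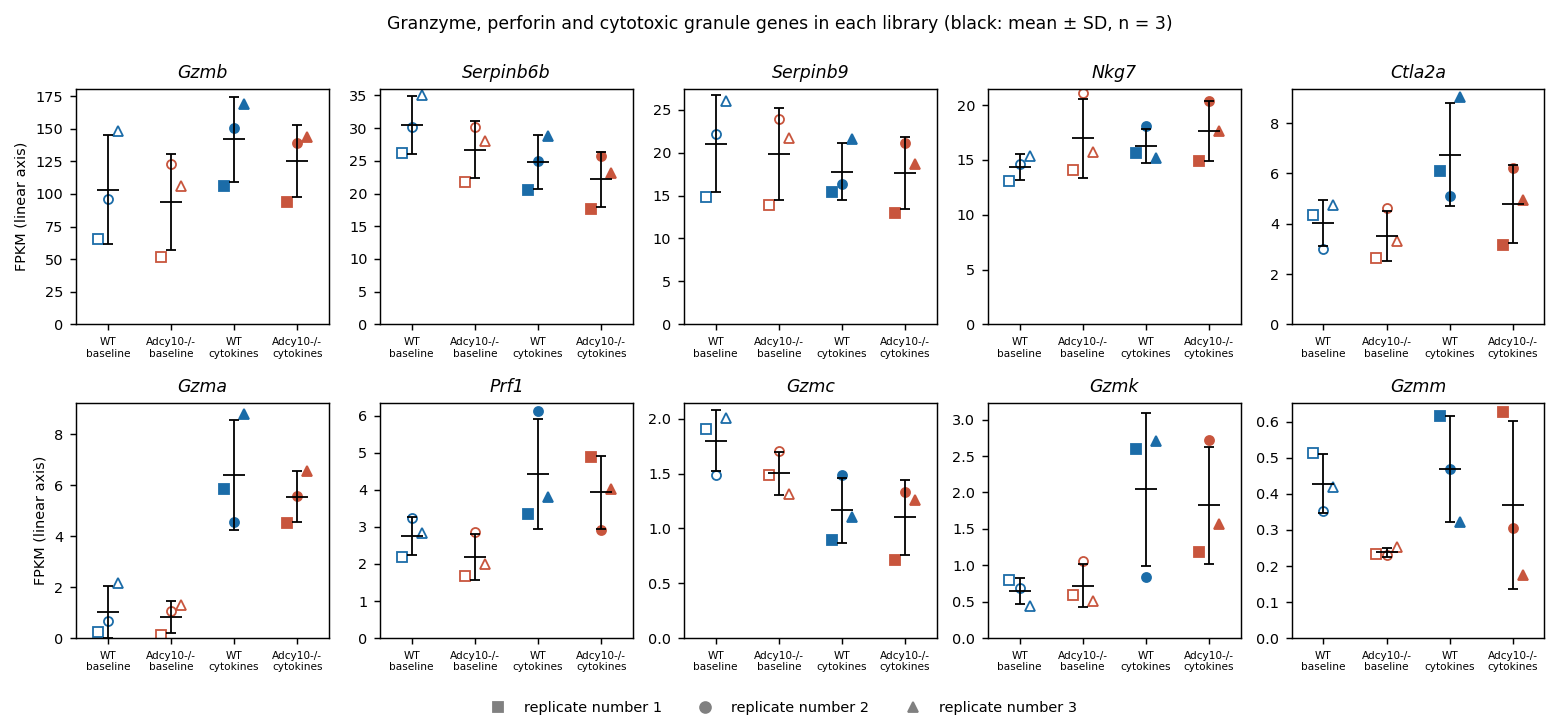
Level of each of the 10 genes in FPKM (linear axis from 0, a separate scale per gene) in the 12 libraries, by genotype and medium. Symbols mark the replicate number, open symbols baseline medium, filled symbols cytokines, and black marks the mean ± SD of 3 libraries. Gzma sits between 4.54 and 8.80 in the 6 libraries with cytokines and between 0.104 and 2.16 in the 6 without.

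The 3 members that rose in the average over both genotypes (below) and the most abundant member are shown by the 250 bases before their start of transcription. The sequences are those of RefSeq on GRCm38.p6, in the direction of transcription, and all 10 members matched the RefSeq promoter table. Gzma lies on the minus strand at chr13:113100982-113101231 and its neighbour Gzmk on the same strand at chr13:113180966-113181215, with no protein-coding gene between these genes. Prf1 lies on the plus strand at chr10:61297586-61297835, and Gzmb on the minus strand at chr14:56262335-56262584, next to Gzmc. Capitals mark matches, on either strand, to 6 motifs: AP-1 (TGANTCA), the cyclic AMP response element (TGACGTCA), the T-box (TCACACC), STAT (TTCNNNGAA), RUNX (TGTGGT) and the TATA box (TATAAA).
Gzma: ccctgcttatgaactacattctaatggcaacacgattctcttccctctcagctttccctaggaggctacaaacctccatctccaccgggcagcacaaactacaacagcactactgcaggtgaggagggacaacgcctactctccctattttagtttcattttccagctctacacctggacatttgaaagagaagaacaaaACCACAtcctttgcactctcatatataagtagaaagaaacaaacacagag
Gzmk: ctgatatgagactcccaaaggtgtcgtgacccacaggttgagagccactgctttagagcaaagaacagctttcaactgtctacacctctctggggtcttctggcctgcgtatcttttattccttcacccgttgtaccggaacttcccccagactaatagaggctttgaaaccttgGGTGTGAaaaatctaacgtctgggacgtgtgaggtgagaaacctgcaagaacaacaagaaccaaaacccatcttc
Prf1: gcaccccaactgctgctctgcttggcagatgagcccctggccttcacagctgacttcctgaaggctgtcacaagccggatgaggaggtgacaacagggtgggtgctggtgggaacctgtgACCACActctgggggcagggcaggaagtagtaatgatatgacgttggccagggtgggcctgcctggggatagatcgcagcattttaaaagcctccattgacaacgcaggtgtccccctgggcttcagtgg
Gzmb: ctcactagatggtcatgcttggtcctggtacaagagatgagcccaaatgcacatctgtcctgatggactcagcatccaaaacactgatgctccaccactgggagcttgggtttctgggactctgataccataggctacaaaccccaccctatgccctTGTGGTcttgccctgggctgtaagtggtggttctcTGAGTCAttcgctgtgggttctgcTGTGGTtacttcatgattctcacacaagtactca
Gzma and Prf1 each held 1 RUNX match, found as its reverse complement, Gzmk held 1 T-box match, likewise reversed, and Gzmb held 1 AP-1 and 2 RUNX matches. The match in Gzma lay 50 to 45 bases before the start and that in Gzmk 75 to 69 bases before it. Of 32851 mouse promoters of this length, 14.0% held a RUNX match, 3.33% a T-box match and 6.75% an AP-1 match. Of the members not shown, Gzmc, next to Gzmb, held 1 match to the cyclic AMP response element, which 1.55% of promoters held, and 2 to RUNX. Nkg7 held T-box, STAT and RUNX matches. Gzmm had 2 listed starts, 1 with STAT and RUNX matches and the other with only a T-box match. Ctla2a had 2 listed starts with overlapping sequence, and each held AP-1, STAT and TATA box matches. Serpinb9 and Serpinb6b held no match. A match is only a run of letters, and no binding was measured here.

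Gzma rose with cytokines in both genotypes. It encodes granzyme A, a trypsin-like granzyme. In WT cells, Gzma was at 0.252, 0.663 and 2.16 FPKM in baseline medium (replicates 1, 2 and 3) and at 5.87, 4.57 and 8.80 FPKM with cytokines. In Adcy10-/- cells it was at 0.104, 1.08 and 1.29 FPKM in baseline medium and at 4.54, 5.59 and 6.55 FPKM with cytokines. Every library with cytokines was above every baseline library, and the lowest values of all were the 2 baseline libraries numbered 1. On the log2(FPKM + 1) scale, which understates the change of low genes, Gzma rose by 1.94 in WT cells (SE 0.35, adjusted p = 0.00969, limma) and by 1.90 in Adcy10-/- cells (SE 0.35, adjusted p = 0.011). Averaged over genotypes the rise was 1.92 (SE 0.25, adjusted p = 0.000458). It was 1.69 without the 4 libraries numbered 1 (adjusted p = 0.00294). Leaving out 1 library at a time moved the WT result past the threshold of 0.05 in 1 of 12 fits, without WT baseline replicate 2, where the adjusted p was 0.0533.

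Gzmk, the other trypsin-like granzyme of this locus, was low throughout. It was at 0.803, 0.690 and 0.447 FPKM in WT baseline libraries and at 2.59, 0.836 and 2.71 FPKM in WT libraries with cytokines. The Adcy10-/- libraries gave 0.592, 1.06 and 0.505 FPKM at baseline and 1.18, 2.72 and 1.56 FPKM with cytokines. Within each genotype the groups did not overlap, but the highest baseline library, at 1.06, was above the lowest library with cytokines, at 0.836. These values fitted whole multiples of 1 step, at 6 to 45 steps per library, each read as 1 fragment. Gzmk reached 1 FPKM in 1 of 6 baseline and 5 of 6 cytokine libraries, so it passed the expression filter through the group where it is high. The averaged cytokine effect was 0.76 on the log2 scale (SE 0.19, adjusted p = 0.0213, limma), with 0.82 in WT cells (adjusted p = 0.109) and 0.69 in Adcy10-/- cells (adjusted p = 0.217). With a replicate block within genotype, a fit that compares libraries of the same genotype and number, it also passed in WT cells (adjusted p = 0.0265), and not in Adcy10-/- cells (adjusted p = 0.0586). The averaged call was lost without the 4 libraries numbered 1 (0.78, adjusted p = 0.0736). It was also lost without Adcy10-/- baseline replicate 3, WT cytokine replicate 1 or WT cytokine replicate 3, with adjusted p = 0.0544, 0.0521 and 0.0503.

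Prf1, which encodes the pore former, showed a smaller rise. WT libraries held 2.20, 3.23 and 2.84 FPKM at baseline and 3.34, 6.11 and 3.82 FPKM with cytokines. Adcy10-/- libraries held 1.68, 2.87 and 1.99 FPKM at baseline and 4.87, 2.91 and 4.01 FPKM with cytokines. The groups did not overlap within a genotype, although the margins were narrow: 3.23 against 3.34 in WT cells and 2.87 against 2.91 in Adcy10-/- cells. The averaged cytokine effect was 0.57 on the log2 scale (SE 0.15, adjusted p = 0.0254, limma), and neither genotype passed alone (0.51, adjusted p = 0.211 in WT and 0.63, adjusted p = 0.134 in Adcy10-/-). Without the 4 libraries numbered 1 the averaged effect was 0.46 (adjusted p = 0.0928). The call was lost in 5 of 12 fits that left out 1 library: WT baseline replicate 1, Adcy10-/- baseline replicates 1 and 3, and Adcy10-/- cytokine replicates 1 and 3, with adjusted p from 0.0528 to 0.063.

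Gzmb encodes granzyme B, which cleaves after aspartate and activates caspases in target cells. Its level was at 65.2, 96.3 and 148 FPKM in WT baseline libraries and at 106, 150 and 169 FPKM with cytokines. In Adcy10-/- cells it was at 52.0, 123 and 106 FPKM at baseline and at 93.8, 139 and 143 FPKM with cytokines. The groups overlapped, but each library with cytokines was higher than the baseline library of the same genotype and number, in 6 of 6 pairs. Without regard to the number, the log2 effect was 0.51 in WT cells (SE 0.35, adjusted p = 0.485, limma) and 0.48 in Adcy10-/- cells (SE 0.35, adjusted p = 0.611). With the replicate block within genotype, Gzmb passed in both genotypes, with SE 0.12 and adjusted p = 0.0282 in WT and 0.0394 in Adcy10-/-. The averaged effect was 0.36 without the libraries numbered 1 and without a block (adjusted p = 0.11).

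Gzmc, a granzyme of the same cluster as Gzmb, was lower with cytokines in group mean. It was at 1.90, 1.49 and 2.01 FPKM in WT baseline libraries and 0.897, 1.49 and 1.11 FPKM with cytokines. In Adcy10-/- libraries it was at 1.48, 1.71 and 1.31 FPKM at baseline and 0.710, 1.33 and 1.26 FPKM with cytokines. The groups overlapped in both genotypes. The averaged effect was -0.32 (SE 0.10, adjusted p = 0.0591, limma), and -0.32 with the replicate block within genotype (adjusted p = 0.0388). Without a block, this effect passed in 1 of 12 fits that left out 1 library, WT cytokine replicate 2 (adjusted p = 0.0376, limma). It was -0.19 without the libraries numbered 1 (adjusted p = 0.299). Gzmm, a granzyme that cleaves after methionine, stayed below the filter in all 12 libraries. It was at 0.514, 0.352 and 0.419 FPKM in WT and at 0.233, 0.230 and 0.252 FPKM in Adcy10-/- baseline libraries. With cytokines it was at 0.616, 0.469 and 0.321 FPKM in WT and at 0.628, 0.306 and 0.176 FPKM in Adcy10-/- libraries. These values fitted 5 to 18 steps per library, and no difference of Gzmm between genotypes or media was tested. In WT baseline replicate 1, the fit gave 14 steps to Gzmk and 16 to Gzmm, which had the lower FPKM. Their longest transcripts have 1304 and 1287 bases, so a step may not be 1 fragment for both.

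Nkg7, a membrane protein of the granules needed for their release, differed least between media. It was at 13.0, 14.6 and 15.4 FPKM in WT baseline libraries and at 15.6, 18.1 and 15.2 FPKM with cytokines. In Adcy10-/- libraries it was at 14.1, 21.1 and 15.7 FPKM at baseline and at 14.9, 20.4 and 17.6 FPKM with cytokines. The groups overlapped in both genotypes, and the averaged effect was 0.12 (95% interval -0.10 to 0.34, adjusted p = 0.511, limma). It was the one tested member that no fit called, with or without the block, and its averaged effect was 0.10 without the libraries numbered 1 (adjusted p = 0.604).

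Ctla2a encodes an inhibitor of cathepsins, the cysteine proteases of lysosomes and granules. WT libraries held 4.33, 2.99 and 4.74 FPKM at baseline and 6.11, 5.09 and 9.02 FPKM with cytokines, and the groups did not overlap. Adcy10-/- libraries held 2.64, 4.61 and 3.30 FPKM at baseline and 3.16, 6.23 and 4.94 FPKM with cytokines, and the groups did overlap. All 6 same-number pairs were higher with cytokines. The log2 effect was 0.61 in WT cells (SE 0.24, adjusted p = 0.191, limma) and 0.34 in Adcy10-/- cells (SE 0.24, adjusted p = 0.604), and both passed with the replicate block within genotype (adjusted p = 0.00299 and 0.0357). The averaged effect was 0.56 without the libraries numbered 1 (adjusted p = 0.0991). Of the 50-base words in its transcript, 30.1% also occur in transcripts of other genes, 24.1% in the predicted gene Gm49391, so its level is uncertain where reads could be split between copies.

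Both serpins had lower group means with cytokines. Serpinb6b, an intracellular serpin known to inhibit granzyme A, was at 26.2, 30.1 and 35.1 FPKM in WT baseline libraries and at 20.6, 25.0 and 28.8 FPKM with cytokines. In Adcy10-/- libraries it was at 21.8, 30.3 and 28.0 FPKM at baseline and at 17.6, 25.8 and 23.1 FPKM with cytokines. The groups overlapped, yet all 6 same-number pairs were lower with cytokines, by 0.22 to 0.33 on the log2 scale. The effect was -0.29 in WT cells (SE 0.17, adjusted p = 0.397, limma) and -0.26 in Adcy10-/- cells (SE 0.17, adjusted p = 0.556). With the replicate block within genotype the SE was 0.04, and Serpinb6b fell in both genotypes (adjusted p = 0.00279 and 0.00447). The averaged effect was -0.26 without the libraries numbered 1 (adjusted p = 0.0593).

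Serpinb9, the neighbour of Serpinb6b and the inhibitor of granzyme B, was at 14.9, 22.2 and 26.0 FPKM in WT baseline libraries and at 15.4, 16.4 and 21.6 FPKM with cytokines. In Adcy10-/- libraries it was at 13.8, 24.0 and 21.7 FPKM at baseline and at 13.0, 21.2 and 18.6 FPKM with cytokines. The groups overlapped, and 5 of 6 same-number pairs were lower with cytokines. The effect was -0.21 in WT cells and -0.16 in Adcy10-/- cells (adjusted p = 0.71 and 0.879, limma). Averaged over genotypes it was -0.18 (adjusted p = 0.563), and it passed with the replicate block within genotype (adjusted p = 0.0412). It was -0.26 without the libraries numbered 1 (adjusted p = 0.126).

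**Figure D2:**
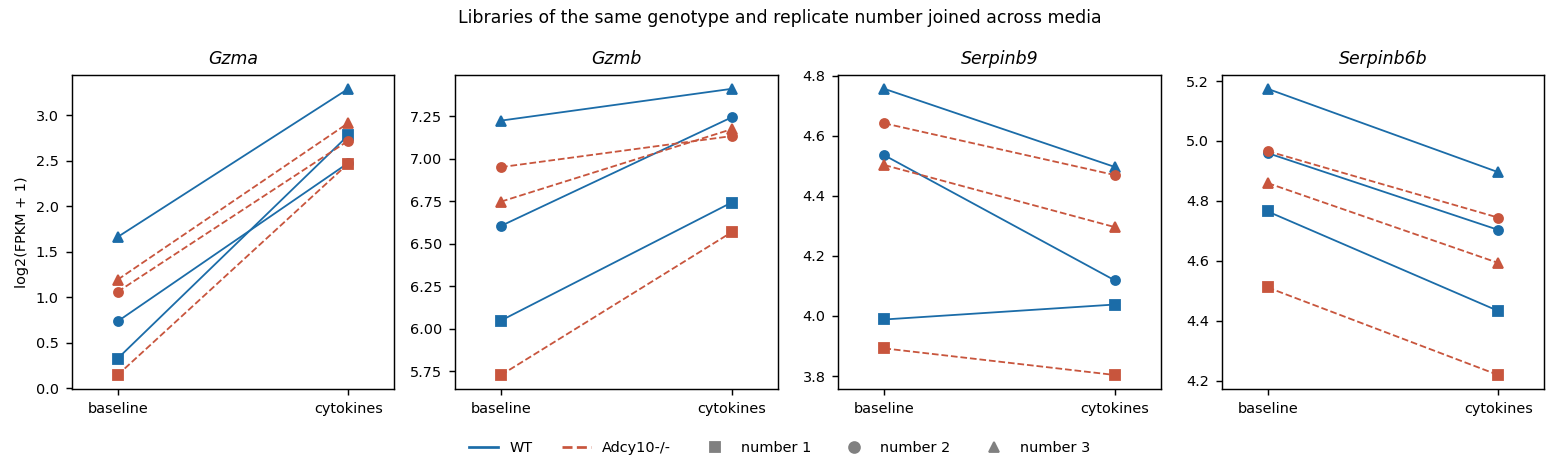
Level as log2(FPKM + 1) of Gzma, Gzmb, Serpinb9 and Serpinb6b in each library, with lines that join libraries of the same genotype and replicate number from baseline medium to cytokines (blue WT, red dashed Adcy10-/-; each panel has its own axis, not from 0 for the last 3). Lines for Gzma and Gzmb rise in 6 of 6 pairs, those for Serpinb6b fall in 6 of 6, and the libraries numbered 1 are the lowest of their groups for Gzmb and both serpins.

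Counted over the 9 tested members, 1 (Gzma) rose with cytokines in WT cells and none fell, against 4.93% of all tested genes called (2.65% higher and 2.28% lower). In Adcy10-/- cells 1 rose (Gzma), against 4.27% of all tested genes called (2.14% higher and 2.12% lower). In the average over genotypes 3 rose (Gzma, Gzmk, Prf1) and none fell, against 13.2% of all tested genes called (6.57% higher and 6.68% lower). The members' median effect in that average was 0.48, beside -0.02 over all tested genes. Without the 4 libraries numbered 1, only Gzma passed in the average, against 8.92% of all tested genes. With the replicate block within genotype, 5 of 9 passed in WT cells, 4 higher and 1 lower, against 15.5% of all tested genes (8.05% higher and 7.5% lower). In Adcy10-/- cells 4 of 9 passed, 3 higher and 1 lower, against 11.8% (5.41% higher and 6.37% lower). In the average with that block, 8 of 9 passed, against 26.7% of all tested genes (12.1% higher and 14.6% lower): Gzma, Gzmb, Gzmk, Prf1 and Ctla2a rose and Gzmc, Serpinb9 and Serpinb6b fell. A block on the number alone, over both genotypes, called 3, 2 and 7 members in WT cells, Adcy10-/- cells and the average, against 14.8%, 10.7% and 25.9% of all tested genes. By overlap alone, 4 members (Gzma, Gzmk, Prf1, Ctla2a) were higher in every WT library with cytokines than in any WT baseline library, against 10.5% of tested genes, and 3 (Gzma, Gzmk, Prf1) in Adcy10-/- cells, against 9.28%. Gzmk belongs to these counts through the filter that its own high group passed. The members were chosen with earlier results of these data known, and the blocks rest on correlations in the same data. These shares are therefore not a test of enrichment.

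**Figure D3:**
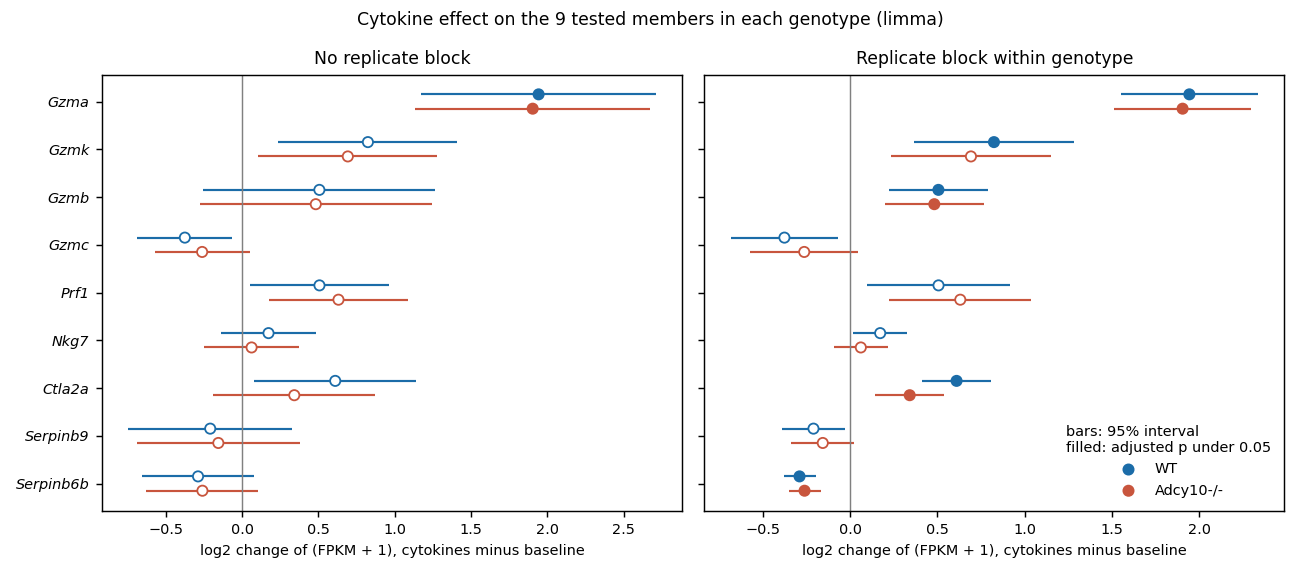
Cytokine effect (log2 change of FPKM + 1, cytokines minus baseline) on the 9 tested genes in WT (blue) and Adcy10-/- cells (red), from limma without a block (left) and with the replicate block within genotype (right). Bars are 95% intervals and filled points have an adjusted p under 0.05. Gzma is called on both sides, at 1.94 and 1.90, and the estimates of the other genes are the same on both sides with shorter bars on the right.

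Several members varied together between replicates. After the group means were removed, the log2 levels of Gzmb and Serpinb9 correlated at 0.94 over the 12 libraries, those of Gzmb and Serpinb6b at 0.92, those of Serpinb9 and Serpinb6b at 0.95 and those of Gzma and Gzmb at 0.87. Prf1 and Gzmk stood at -0.64. These are descriptions over libraries that share their number, depth and culture. Gzmb, Serpinb9 and Serpinb6b were lowest in the library numbered 1 in all 4 groups, which also held for 16.2% of all tested genes. Serpinb9 was at 13.0 to 15.4 FPKM in the 4 libraries numbered 1 and at 16.4 to 26.0 FPKM in the other 8, with no overlap. Cd8a, Blk and Tbx21 moved with the same libraries, as given above, and their part in the members' levels was not tested.

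No member differed between the genotypes in a test. In baseline medium, with cytokines and in the average over media, limma called 0 of 9 members and 0 of the 10126 tested genes (0%), and 118, 202 and 180 genes had an unadjusted p under 0.05. If no gene differed, a share of 0.05 of the tested genes would be expected to have such a p. Each of these counts is smaller, so this fit may be too strict and may miss differences between genotypes. When the libraries numbered 1 were left out, 0 of 9 members were called in each of the 3 comparisons, against 0%, 0.0198% and 0.0198% of all tested genes. In the averaged comparison the Gzma difference (Adcy10-/- minus WT) was -0.13 on the log2 scale, with a 95% interval of -0.67 to 0.42. For Gzmb it was -0.16 (-0.70 to 0.37), for Prf1 -0.19 (-0.51 to 0.14) and for Ctla2a -0.29 (-0.67 to 0.08), the largest in size among the members. Nkg7 was the one tested member with a positive estimate, 0.16 (-0.06 to 0.37). The other 4 lay between -0.17 (Serpinb6b) and -0.01 (Gzmk). All 9 intervals included 0, and the one that reached farthest was that of Gzmb.

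The cytokine effect itself was compared between the genotypes by the interaction, the effect in Adcy10-/- minus that in WT cells. It called 0 of 9 members and 0 of all tested genes (0%), of which 112 had an unadjusted p under 0.05, and again 0 of 9 members without the libraries numbered 1 (against 0.00988% of all tested genes). The 112 genes are again fewer than a share of 0.05, so this test may also be too strict. For Gzma the interaction was -0.04 (95% interval -1.13 to 1.05) and for Gzmb -0.02 (-1.10 to 1.05), so the rise of Gzma was close in size in both genotypes but the interval is wide. The largest in size was that of Ctla2a, at -0.27 (-1.02 to 0.48).

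Several genes that package and process granzymes rose with cytokines. Of 11 such genes, all tested, 6 rose and 0 fell in the average over genotypes, against 13.2% of all tested genes called, with a list median of 0.21 beside -0.02 for all tested genes. Srgn encodes serglycin, the proteoglycan that holds granzymes in the granule, and was the most abundant. It was at 542 to 619 FPKM in the 6 baseline libraries and at 780 to 935 FPKM in the 6 with cytokines, with no overlap (0.52, adjusted p = 0.000116, limma). Cst7, an inhibitor of the cathepsin that activates granzymes, was at 34.4 to 46.8 FPKM at baseline and 63.1 to 79.0 FPKM with cytokines (0.79, adjusted p = 4.23e-05). Lamp2, a lysosomal membrane protein, rose by 0.57 (adjusted p = 0.00259), and Ctsw, a cathepsin of cytotoxic cells, by 0.44 (adjusted p = 0.00176). Calr and Lamp1 were the remaining 2, at 0.11 and 0.13. Ctsc, the cathepsin that activates granzymes, stood at 25.9 to 30.3 FPKM at baseline and 27.2 to 30.1 FPKM with cytokines (0.05, adjusted p = 0.531). When the libraries numbered 1 were left out, 5 of the 11 rose and 0 fell, against 8.92% of all tested genes called. With the replicate block within genotype 8 rose and 1 fell (Igf2r, a receptor that sorts enzymes to lysosomes), against 26.7%.

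Of 16 tested genes of the machinery that moves and fuses granules, 3 rose (Rab27a, Stx7 and Stx11) and 2 fell (Ap3b1 and Sytl2), against 13.2% of all tested genes called, with a median of 0.02. The effects were 0.28 for Rab27a, a small GTPase that docks granules, and -0.50 for Sytl2, one of its effectors (adjusted p = 0.0112 and 0.0254, limma). Sytl2 reached 1 FPKM in 5 of 6 baseline and 0 of 6 cytokine libraries, so it passed the expression filter through the group where it is high. Stx7, a membrane fusion protein, stood at 0.42 and Ap3b1, an adaptor that sorts granule proteins, at -0.28 (adjusted p = 0.0102 and 0.00313). Without the libraries numbered 1, only Stx7 rose and only Ap3b1 fell, against 8.92% of all tested genes called. With the replicate block within genotype 4 rose and 4 fell, against 26.7%. Of 6 tested inhibitors of granzymes and cathepsins outside the 10 members, 1 rose (Cst3, cystatin C, 0.20, adjusted p = 0.0117) and 0 fell. Of all tested genes 13.2% were called. Without the libraries numbered 1, Cst3 no longer passed (0.18, adjusted p = 0.0543) and 1 other, Serpina3f, fell. Of all tested genes 8.92% were then called. With the block 2 rose and 2 fell, against 26.7% of all tested genes called.

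Of 8 genes of other killing routes (ligands, cytokines, receptors and a granzyme substrate), 0 rose and 5 fell with cytokines, against 13.2% of all tested genes called, with a median of -0.50. Fasl, the ligand of the death receptor Fas, was at 4.05 to 7.06 FPKM in the 6 baseline libraries and at 0.819 to 1.81 FPKM in the 6 with cytokines. It fell by 1.49 on the log2 scale (adjusted p = 0.000106, limma). Lta, lymphotoxin alpha, was at 73.2 to 89.7 FPKM at baseline and at 27.3 to 42.8 FPKM with cytokines, a fall by 1.28 (adjusted p = 1.68e-05). Crtam, a surface receptor of cytotoxic T cells, fell by 0.62 (adjusted p = 0.00345) and Tnf by 0.38 (adjusted p = 0.00976). The fifth was Bid, a target of granzyme B, at -0.37. Without the libraries numbered 1, 5 fell, with Ifng in place of Tnf, against 8.92% of all tested genes called. Tnf then stood at -0.35 (adjusted p = 0.0593). Under the replicate block within genotype 7 of the 8 fell and 0 rose, against 26.7%.

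Transcription factors listed for a link to cytotoxic genes, not all of them established drivers of these genes, moved in both directions. Of 15 tested, 5 rose (Batf, Maf, Prdm1, Id2 and Stat5a) and 3 fell (Eomes, Stat4 and Hopx), against 13.2% of all tested genes called. Their median was 0.17. Eomes, the T-box factor of CD8 T cells and NK cells, was at 18.7 to 30.2 FPKM at baseline and at 2.01 to 3.01 FPKM with cytokines. It fell by 2.89 (SE 0.11, adjusted p = 2.64e-07, limma), in all 6 same-number pairs. Maf rose by 1.23, Batf by 0.97, and Stat4 fell by 0.67 (adjusted p = 6.52e-05, 0.0041 and 0.000188). T-bet (Tbx21), the other T-box factor, stood at -0.07 (SE 0.30, adjusted p = 0.912) and at -0.26 without the libraries numbered 1 (adjusted p = 0.0404). Without those libraries 4 rose and 4 fell, against 8.92% of all tested genes called, and with the replicate block within genotype 7 rose and 3 fell, against 26.7%.

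**Figure D4:**
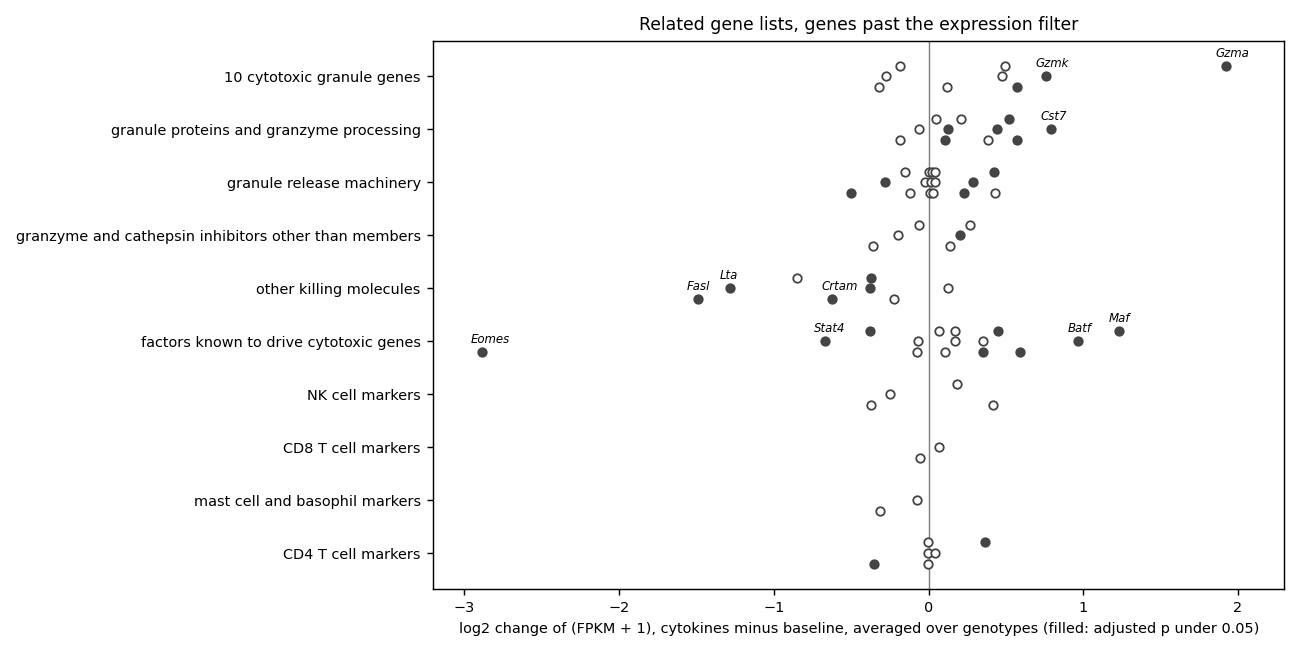
Cytokine effect averaged over genotypes (log2 change of FPKM + 1) for every tested gene of the lists shown, 1 point per gene (filled: adjusted p under 0.05 by limma; vertical spread within a list is only for legibility). Called genes beyond 0.6 in size are named. Gzma at 1.92, Maf at 1.23, Batf at 0.97, Cst7 at 0.79 and Gzmk at 0.76 lie to the right. Eomes at -2.89, Fasl at -1.49, Lta at -1.28, Stat4 at -0.67 and Crtam at -0.62 lie to the left.

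Markers of NK cells, CD8 T cells, mast cells and basophils, and gamma delta T cells were examined. Of 10 NK cell markers 4 passed the expression filter and none was called in the average, against 13.2% of all tested genes. Their summed level was 7.03 to 15.3 FPKM over all groups, and the defining markers Ncr1 and Klrb1c did not exceed 0.218 and 0.176 FPKM. With the replicate block within genotype, 1 of the 4 rose (Tyrobp) and 1 fell (Klrc1, by 0.25, adjusted p = 0.0467, limma). Of all tested genes 26.7% were called in that fit. Klrc1 reached 1 FPKM in 5 of 6 baseline and 1 of 6 cytokine libraries and so passed the filter through its higher group. Tyrobp, which myeloid cells also express, was the highest of these markers, at 2.85 to 5.63 FPKM at baseline and 3.87 to 9.80 FPKM with cytokines. By group, the NK sum was 8.69 to 11.2 FPKM in WT and 8.04 to 9.39 FPKM in Adcy10-/- baseline libraries, and 7.33 to 15.3 and 7.03 to 10.2 FPKM with cytokines. Cd8b1 was at 7.49 to 12.2 FPKM over the 12 libraries and was not called for the medium (-0.06, adjusted p = 0.755, limma). With Cd8a, the 2 CD8 T cell markers summed to 8.85 to 13.8 and 10.5 to 12.3 FPKM in WT and Adcy10-/- baseline libraries, and to 9.37 to 14.7 and 8.43 to 12.04 FPKM with cytokines. Of 10 mast cell and basophil markers 2 passed the filter and none was called, against 13.2% of all tested genes. Their sums were 1.58 to 7.74 FPKM. Of 3 gamma delta T cell markers with a row, only Blk passed the filter and was not called (0.09, adjusted p = 0.931). Cd4 itself was at 119 to 179 FPKM in every library, so the labelled cell type's own marker was abundant, and fell by 0.35 with cytokines (adjusted p = 0.00344), while Cd5 rose by 0.36 (adjusted p = 0.00114). The part of any of these cells in the members' levels was not tested.

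Over the 12 libraries and the 7029 genes with a mean of at least 5 FPKM, the genes whose log2 levels ran most like those of Gzma were Atp2b4 (Pearson r 0.985), Il21 (0.981) and Sh3rf1 (0.98). All 3 rose with cytokines in the average (1.29, 3.48 and 0.56; adjusted p = 0.00231, 9.31e-05 and 0.000495, limma). The 3 were picked for likeness to Gzma, which separates the media, so their rise follows from the choice and is no separate support. Nearest to Gzmk were Ctla4 (0.916), Gpr65 (0.884) and Lsm14b (0.882), and nearest to Prf1 were Mrpl52 (0.887), Ddx28 (0.88) and Ubac1 (0.873). Gzmb ran most closely with Hsp90b1 (0.978), a chaperone of the endoplasmic reticulum, Hk2 (0.977), a hexokinase, and Mif4gd (0.974), of which none passed the test for the medium. Gzmc was nearest to Znhit6 (0.877), Yars2 (0.875) and Larp1b (0.864). Nkg7 was nearest to Get4 (0.91), Stau1 (0.895) and Plk1 (0.863), and Ctla2a to Ankrd37 (0.948), Slamf1 (0.925) and Mapkapk2 (0.898). Serpinb9 ran with Tra2a (0.973) and Foxk2 (0.972), and Serpinb6b with Cdc6 (0.965), a factor of DNA replication, Usp16 (0.96) and Mms22l (0.953). These correlations are over 12 libraries that differ in medium and replicate number together.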

How the data were processed

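Polyadenylated RNA of 12 libraries (4 groups of 3) was used. The authors deposited FPKM per gene. Per the submitters' processing notes, STAR 2.4.0f1, SAMtools 0.1.19, Cufflinks and HTSeq were used with the build mm9; strand handling is not given in the sources used here. Each file held 24488 entries for 23991 names, and the 755 entries of 258 repeated names (no member among them) were summed. The 10126 genes that reached 1 FPKM in 3 or more libraries were tested on log2(FPKM + 1), using limma 3.58.1 (R 4.3.3; tables read by data.table, version 1.17.8) with 4 group means, a variance trend and Benjamini-Hochberg adjustment over all tested genes, at a threshold of 0.05. Intervals are 95%. FPKM gives no counts, so the precision that depth gives is unknown. Steps read as fragments were fitted for Gzmk and Gzmm (tolerance 0.12 of a step). The fits were also run on simulated data with noise independent between libraries. That simulation held no spread shared by replicate number, so it cannot show how the fits behave with such spread. Tabulation used pandas 2.3.3, scipy 1.17.1 and numpy 2.4.6, and figures matplotlib 3.10.9, in Python 3.11.15.

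The members and lists were chosen with earlier results of these data known. The text names all 10 members. From each other list it names up to 4 genes with the largest averaged cytokine effect among those that passed (or the smallest p), with Eomes, Tbx21, Fasl, Ctsc, Srgn and Cst7 always, and for each tested member the 3 genes most like it, of which 1 is not reported here. Genes named beyond this to complete a count, as defining markers, or because they moved with the libraries numbered 1 were chosen after their values were seen.

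Libraries of the same number and genotype had residuals that correlated at 0.294 to 0.536 (median 0.449, 6 pairs), so the replicate block within genotype is given beside the cytokine effects where it changes a call or a count. Those of the same number and medium but the other genotype correlated at 0.074 to 0.523 (median 0.32). Those of the same number that differed in both genotype and medium correlated at 0.087 to 0.448 (median 0.322). The spread shared by number was therefore not confined to libraries of 1 genotype. The labels do not state any pairing by number, so calls made only with a block rest on these correlations from the same data. The share of all genes that move one way in all 6 same-number pairs was not counted. The alternatives were another pseudocount, other filters, scalings and variance models, the replicate block, leaving out each library and, chosen after seeing the data, leaving out the 4 libraries numbered 1.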

Additional observations from a re-analysis of the deposited data

How the results depend on the processing

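The rise of Gzma in the average over genotypes kept its direction and its call in every fit that tested it. A filter on a mean of at least 5 FPKM left 4 members in the test and none of Gzma, Gzmk and Prf1, so it called 0 in WT, 0 in Adcy10-/- and 0 in the average. The replicate block over all groups called 3 members in WT cells, 2 in Adcy10-/- cells and 7 in the average, and the replicate block within genotype called 5, 4 and 8. In the comparisons of genotypes and the interaction, the replicate block over all groups called 0 members (0, 0, 3 and 0 of all tested genes at baseline, with cytokines, averaged over media and in the interaction). With that block 375, 515, 560 and 335 genes, in the same order, had an unadjusted p under 0.05 (limma). The block within genotype, which gives only the interaction among these comparisons, also called 0 members there. These are given only here, since 1 same-number pair of the 2 genotypes correlated at 0.074. Without the 4 libraries numbered 1, 1 member was called in the average. Leaving out 1 library gave 0 to 2 called members in WT cells and 1 to 4 in the average. With no filter beyond a value above 0, Prf1 no longer passed in the average (0.57, adjusted p = 0.0564). With no variance trend, Gzmc also passed in the average, as a fall.

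Values close to 0 that no fit called changed sign. Without the libraries numbered 1, the genotype effect at baseline of Ctla2a was 0.0362, that with cytokines was 0.0041 for Gzmc, 0.24 for Gzmk and 0.0753 for Serpinb9, that averaged over media was 0.21 for Gzmk and 0.0008 for Serpinb9, and the interaction was 0.0063 for Gzma, 0.0725 for Gzmk and -0.16 for Prf1. With a pseudocount of 0.1 the averaged genotype effect of Gzmk was 0.0122 and the interaction of Gzma 0.12, and with quantile normalization the former was 0.0236. Leaving out 1 library gave a cytokine effect in Adcy10-/- cells of -0.0535 to 0.22 for Nkg7 and -0.38 to 0.0371 for Serpinb9. It gave a genotype effect at baseline of -0.40 to 0.27 for Gzma, -0.44 to 0.22 for Gzmb, -0.083 to 0.14 for Gzmk and -0.30 to 0.15 for Serpinb9. With cytokines that effect was -0.33 to 0.0738 for Gzma, -0.37 to 0.0212 for Gzmb, -0.14 to 0.0947 for Gzmc, -0.41 to 0.0989 for Gzmk, -0.27 to 0.0889 for Prf1, -0.0048 to 0.21 for Nkg7 and -0.17 to 0.17 for Serpinb9. Averaged over media it was -0.27 to 0.0607 for Gzma, -0.31 to 0.0246 for Gzmb, -0.18 to 0.0762 for Gzmk and -0.16 to 0.0587 for Serpinb9. The interaction was -0.42 to 0.25 for Gzma, -0.40 to 0.27 for Gzmb, -0.46 to 0.0456 for Gzmk, -0.0187 to 0.34 for Prf1, -0.23 to 0.047 for Nkg7, -0.17 to 0.27 for Serpinb9 and -0.11 to 0.18 for Serpinb6b. The cause of these changes was not tested. Gzmm and Gzmk had low values, read as few fragments, and changes of genes near 1 FPKM are understated by the pseudocount of 1.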

Other observations

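Granzyme B and its inhibitor can be read as a ratio of FPKM levels, a comparison chosen after the values were seen and given without a test. The ratio of Gzmb to Serpinb9 was 4.34 to 5.70 in WT and 3.75 to 5.12 in Adcy10-/- baseline libraries, and 6.87 to 9.19 and 6.58 to 7.69 with cytokines. No library with cytokines was at or below any baseline library, although the levels of both genes overlapped between media. Serpinb6b is named above as an inhibitor of granzyme A, not of granzyme B. The ratio of Gzmb to Serpinb6b was 2.49 to 4.23 and 2.38 to 4.05 at baseline and 5.15 to 6.00 and 5.32 to 6.19 with cytokines, again with no overlap. After group means were removed, Gzmb correlated with Serpinb9 at 0.94 and with Serpinb6b at 0.92. Both ratios therefore remove spread between replicates that the genes share, and the share of gene pairs that separate in this way was not counted.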
